A study of Homo sapiens with 8 samples.

Results

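Ribosomal protein genes encode the proteins of the large (RPL) and small (RPS) ribosomal subunits, and they were examined here together with their pseudogenes in HCT116, a human colorectal cancer cell line. The genes were chosen by symbol: RPL or RPS followed by a number with an optional A or X, and RPLP0, RPLP1, RPLP2, RPSA and RPL36AL. This rule found 78 of the 42125 genes in the count table of TFAP2C siRNA and 77 of the 23393 genes in that of SAE2 kd. Of the 78 genes, 47 encode proteins of the large subunit and 31 those of the small subunit. Pseudogenes were taken as RPL or RPS symbols that end in P and a number, without the 3 stalk protein genes and without RPS19BP1, a protein-coding gene. There were 29 of them in the SAE2 kd table and 0 in the TFAP2C siRNA table.

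All 8 libraries came from HCT116 cells with a stably integrated, Tet-inducible shRNA against SAE2 (UBA2), a subunit of the enzyme that activates SUMO. In the first experiment the cells received control siRNA or TFAP2C siRNA for 48 hrs, and in the second they received DMSO (control) or 1 μg/mL of doxycycline for 5 days (SAE2 kd). Each of the 4 groups had 2 replicates. No source used here says whether replicates came from separate cultures, so the p-values measure the spread between these libraries, which may be technical.

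Total counts lay between 20785035 and 24465109 in the first experiment and between 18213739 and 20607813 in the second. TFAP2C mRNA was at 18.9 and 20.5 CPM (read counts relative to library size, after TMM scaling) in control siRNA and at 3.46 and 4.30 CPM in TFAP2C siRNA. UBA2 mRNA was at 162 and 146 CPM in control and at 147 and 153 CPM in the libraries labelled SAE2 kd (log2 fold change -0.036, 95% interval -0.15 to 0.078, edgeR adjusted p = 0.766), so a fall of the targeted mRNA was not detectable, and SAE2 kd is used here as the label. The study followed this knockdown by Western blot of the protein, which is not analysed here. Of the 9 epithelial markers, EPCAM, KRT8, KRT18 and CDH1 had at least 1451 counts in every library and CDX2 had 352 to 570, while KRT20 had 8 to 69, VIL1 0 to 3, LGR5 0 to 2 and CDX1 0 to 1. The leukocyte marker PTPRC had 0 to 15 counts, COL1A2 had 0 in all 8 libraries, and COL1A1, another collagen gene, had 269 to 1157.

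Ribosomal protein mRNAs are among the most abundant in growing cells. Most of them belong to the terminal oligopyrimidine (TOP) mRNAs, which begin with a C followed by a run of pyrimidines, and their translation is controlled through mTOR and the RNA-binding protein LARP1. Because these short, highly expressed mRNAs were often copied back into the genome, each gene tends to have many processed pseudogenes, and short reads from the gene and from a copy can be identical.

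The starts of the genes were examined first, since the TOP run is the feature that groups them. RefSeq transcription starts (GRCh38.p14) matched 63 of the 78 genes by symbol, and 46 of these (73.0%) had at least 1 start with a C at the first transcribed base and at least 4 more pyrimidines after it. Among all 27305 genes with a start, 1404 (5.14%) did. Below are the 15 bases before and the first 15 bases of the transcript, with the pyrimidine run in capitals. The first 4 genes were called higher in a knockdown, RPLP2 and RPS12 have long runs, and the last 4 do not have the run at this start.
RPL41: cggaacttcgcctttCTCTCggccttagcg
RPS6: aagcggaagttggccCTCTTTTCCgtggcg
RPS18: cgcgtcacttccgctCTCTCTTCCacagga
RPL12: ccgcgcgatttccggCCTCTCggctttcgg
RPLP2: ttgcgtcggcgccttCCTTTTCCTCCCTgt
RPS12: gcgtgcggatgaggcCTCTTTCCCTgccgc
RPL36AL: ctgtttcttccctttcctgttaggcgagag
RPS4X: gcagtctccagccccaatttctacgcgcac
RPS26: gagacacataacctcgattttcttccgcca
RPS28: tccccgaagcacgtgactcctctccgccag

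These windows lie at chr12:56116618-56116647 (plus strand) for RPL41, chr9:19380222-19380251 (minus strand) for RPS6, chr6:33272060-33272089 (plus strand) for RPS18 and chr9:127451392-127451421 (minus strand) for RPL12. Those of RPLP2 (chr11:809952-809981), RPS12 (chr6:132814554-132814583), RPS26 (chr12:56041903-56041932) and RPS28 (chr19:8321481-8321510) are on the plus strand, and those of RPL36AL (chr14:49620612-49620641) and RPS4X (chrX:72277234-72277263) on the minus strand. The run began at the first transcribed base and was 5 pyrimidines long in RPL41, 9 in RPS6 and RPS18, 6 in RPL12, 13 in RPLP2 and 10 in RPS12. RPL36AL had 3 pyrimidines from its start, and RPS4X, RPS26 and RPS28 had 0. A missing run says only that these letters were not at the annotated start.

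The coding sequences were then searched for stretches that occur elsewhere in the genome. Each coding sequence (MANE Select transcript, GRCh37) was cut into all windows of 51 bases, the read length the methods give, and a window counted as repeated if the same 51 bases were found at another place of the primary assembly on either strand. In the 78 genes the median share of repeated windows was 48.2% (range 0% to 100%), against a median of 0% in 18843 other protein-coding genes. At least 50% of the windows were repeated in 38 of the 78 genes (48.7%) and in 3.88% of the others, and at least 99% in 9 genes (11.5%) and in 0.738% of the others. The windows below come from the middle of the coding sequence, each within a single coding exon. No part is in capitals, because the whole window is what was matched.
RPL21: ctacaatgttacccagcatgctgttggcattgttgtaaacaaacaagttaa
RPS27: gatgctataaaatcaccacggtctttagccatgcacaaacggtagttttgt
RPS10: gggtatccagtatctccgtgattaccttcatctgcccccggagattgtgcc
RPSA: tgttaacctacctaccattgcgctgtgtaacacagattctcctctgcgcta
RPL11: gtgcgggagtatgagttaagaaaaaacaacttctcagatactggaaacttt
RPLP2: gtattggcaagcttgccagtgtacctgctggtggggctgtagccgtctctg

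The RPL21 window (chr13:27829441-27829491, plus strand) was found at 12 other places, that of RPS27 (chr1:153964042-153964092, plus strand) at 3 and that of RPS10 (chr6:34392496-34392546, minus strand) at 2. The RPSA window (chr3:39452409-39452459, plus strand) was found at 2 other places, among them the pseudogene RPSAP58 at chr19:24010380-24010430. The windows of RPL11 (chr1:24021150-24021200, plus strand) and RPLP2 (chr11:812535-812585, plus strand) were found at 0 other places. The first 3 genes are among those with the fewest counts, and RPL11 and RPLP2 are among those with the highest levels, as described next.

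Levels of the ribosomal protein genes spread over a wide range, and the genes at the low end were those with repeated coding sequence. Levels were compared between genes as mean CPM of the 4 libraries per kb of the gene length that the SAE2 kd table lists, for the 77 genes with such a length. In the SAE2 kd experiment the level ran from 0.549 CPM per kb for RPS10, a protein of the small subunit head, to 1626 CPM per kb for RPL8, a protein near the peptidyl transferase centre. In the TFAP2C siRNA experiment it ran from 3.36 CPM per kb for RPL36A to 2174 CPM per kb for RPL8. With the gene lengths listed for the TFAP2C siRNA experiment itself, RPS10 was lowest at 1.67 CPM per kb. By those lengths RPL36A was at 2.47 and RPL8 at 977 CPM per kb, so the lowest gene depended on the lengths used. Across the genes, log2 levels in CPM in the 2 tables had a Pearson's r of 0.958 and a Spearman's rho of 0.936 (77 genes, which are not independent replicates).

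The 9 genes with at least 99% repeated windows had a median level of 12.7 CPM per kb in the TFAP2C siRNA experiment and 5.89 CPM per kb in the SAE2 kd experiment. The 14 genes with under 10% had medians of 932 and 510.5 CPM per kb. In between, the 28 genes with 50% to 99% had medians of 230.1 and 165 CPM per kb, and the 26 genes with 10% to 50% had 346 and 266 CPM per kb. Of the 10 genes with the lowest level, 7 in the first and 8 in the second experiment had at least 99% repeated windows, and all 10 had at least 50% in both. Of the 10 with the highest level, 1 and 2 had at least 50%. Over the 77 genes, the share of repeated windows and the log2 level had a Spearman's rho of -0.702 in the TFAP2C siRNA experiment and -0.668 in the SAE2 kd experiment. With levels per kb of coding sequence, rho was -0.829 and -0.820. How reads with several equal positions were counted is not given in the sources used here, and its part in the levels was not tested.

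**Figure D1:**
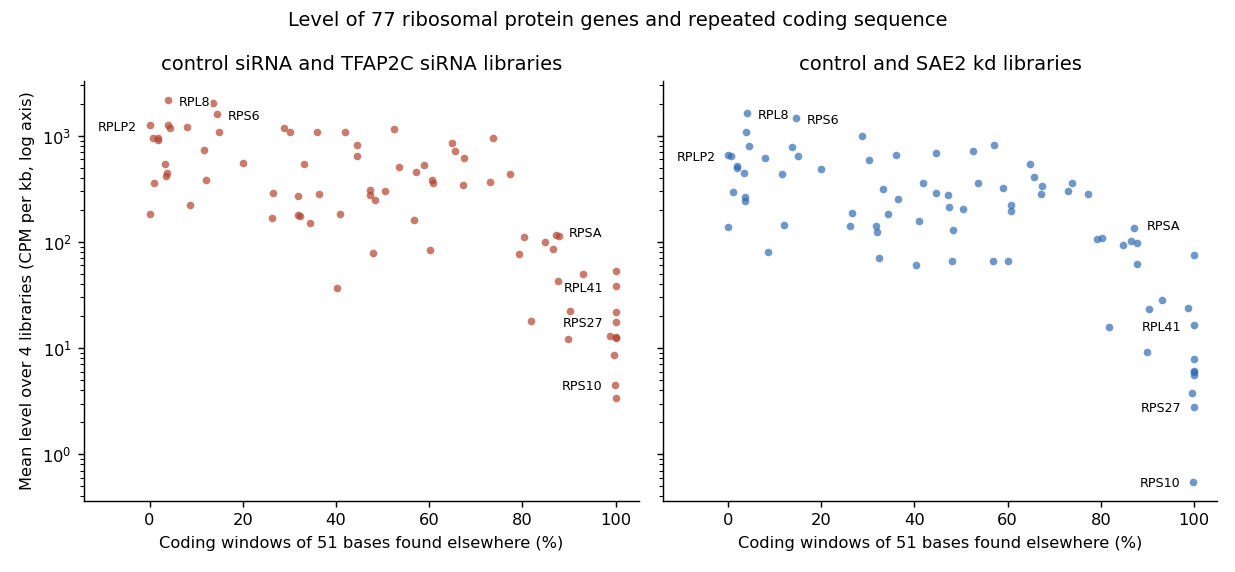
Share of 51-base coding windows found elsewhere in GRCh37 (x axis, percent) against the mean level over the 4 libraries of each experiment (y axis, CPM per kb, log axis). Each point is 1 of 77 ribosomal protein genes. Genes at 99% or more had median levels of 12.7 (left) and 5.89 (right), and genes under 10% had medians of 932 and 510.5.

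RPS10 had 91 and 92 counts in control siRNA and 91 and 84 in TFAP2C siRNA, and it was the single gene with a mean under 10 counts in the SAE2 kd experiment, with 9 and 12 in control and 3 and 13 in SAE2 kd. RPS27, a zinc finger protein of the small subunit, had 137 and 134 counts against 149 and 143 in the first experiment, and 13 and 26 against 15 and 21 in the second. In CPM these groups overlapped in both experiments. RPS27 was at 5.62 and 6.42 CPM in control siRNA and at 6.21 and 6.40 CPM in TFAP2C siRNA. Both tables also list a read-through gene over RPS10 (RPS10-NUDT3), RPL17 (RPL17-C18orf32) and RPL36A (RPL36A-HNRNPH2), with 0 counts in all 8 libraries. Reads in the shared exons could count for either gene or for neither, so the values of RPS10, RPL17 and RPL36A are uncertain.

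The close pair RPL36A and RPL36AL differed in this respect. RPL36A, on chromosome X, had all of its windows repeated and a level of 3.36 and 5.59 CPM per kb in the first and second experiment. RPL36AL had 34.3% repeated windows and a level of 152 and 184 CPM per kb. Part of this gap comes from the listed lengths, 2.906 kb for RPL36A and 0.575 kb for RPL36AL. Not divided by length, RPL36A was at 9.76 and 16.2 CPM and RPL36AL at 87.4 and 106 CPM. At the other end, RPL8 (4.02% repeated), RPL11 (3.93%), RPS6 (14.5%) and RPLP2 (0%) were among the 10 highest genes in both experiments.

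The pseudogenes in the SAE2 kd table carried few reads. Together the 29 pseudogenes took 0.0328% and 0.0317% of all counts in control and 0.0326% and 0.0329% in SAE2 kd, against 2.45% and 2.52%, and 2.54% and 2.57%, for the 77 genes. Their median mean count was 24.5, 12 had a mean under 10 counts, and 3 had 0 counts in every library. RPSAP58 and RPL19P12 took 69.8% of the pseudogene counts. RPSAP58, which holds 631 of the 835 coding windows of RPSA, had 2444 and 2670 counts in control and 2291 and 2443 in SAE2 kd. Its parent RPSA had 2669 and 3247, and 2936 and 3036. The pseudogene thus stood at 91.6% and 82.2% of its parent in control and at 78.0% and 80.5% in SAE2 kd.

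RPL19P12 had 1772 and 1923 counts in control and 1824 and 1911 in SAE2 kd, on average 13.5% of RPL19. RPS14P3 stood at 8.52% of RPS14, RPL31P11 at 7.06% of RPL31, RPL23P8 at 2.80% of RPL23 and RPS18P9 at 2.42% of RPS18. Of the parent's coding windows, RPL19P12 holds 19 of 538, RPS14P3 12 of 403 and RPS18P9 8 of 406. RPL31P11 holds 0 of 325 and RPL23P8 60 of 370. Where the reads of these pseudogenes came from was not tested. RPS10P7, which holds 52 of the 445 coding windows of RPS10, had more counts than this parent (27 and 29 in control, 27 and 33 in SAE2 kd), with a mean of 314% of the RPS10 count. RPS10P7 is named for this ratio, after its values were seen.

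The comparison of TFAP2C siRNA with control siRNA asked which mRNAs change when the transcription factor TFAP2C is depleted. All 78 ribosomal protein genes passed the count filter. With an adjusted p under 0.05, 1 gene was called higher and 0 were called lower, beside 39 (0.26%) higher and 72 (0.48%) lower among the 14991 genes tested. At an unadjusted p under 0.05, 8 of the 78 were higher and 0 lower, beside 851 (5.68%) higher and 1038 lower of the 14991. DESeq2 also called 1 higher and 0 lower, beside 52 higher and 62 lower of the 14991.

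The called gene was RPL41, which encodes a very short, basic protein of the large subunit (chr12:56116590-56117967 in the GRCh38 positions of the table, plus strand). Its counts were 483 and 328 in control siRNA and 619 and 619 in TFAP2C siRNA, or 19.8 and 15.7 CPM against 25.8 and 27.7 CPM. Both TFAP2C siRNA libraries lay above both controls. The log2 fold change was 0.58 (SE 0.11, edgeR adjusted p = 0.0368). All 25 coding windows of RPL41 are repeated elsewhere. With library sizes not scaled by TMM its adjusted p was 0.11, and without control siRNA replicate 2 it was 0.341. In the SAE2 kd experiment RPL41 had 170 and 192 counts in control and 169 and 191 in SAE2 kd, a log2 fold change of 0.10 (SE 0.12).

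Below this threshold the genes lay close together and mostly above 0. The log2 fold change was above 0 in 71 of 78 genes, beside 49.1% of all genes, with a median of 0.098 (range -0.22 to 0.58) beside -0.0038 over all genes. This median is a difference of 6.99%. In 48 of the 78 genes both TFAP2C siRNA libraries lay above both controls and in 3 (RPL21, RPL36A and RPS26, each with all coding windows repeated) both lay below, beside 22.4% and 22.4% of all genes. The 47 large-subunit genes had a median of 0.092 and the 31 small-subunit genes a median of 0.10. In bulk RNA, a change in the amount of an mRNA per cell and a change in the mix of cells cannot be told apart.

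The stalk proteins recruit elongation factors to the ribosome. RPLP0 was at 1035 and 1035 CPM in control siRNA and at 1166 and 1064 CPM in TFAP2C siRNA (log2 fold change 0.11, SE 0.071). RPLP1 was at 510.0 and 516 CPM against 610.2 and 565 CPM (0.20, SE 0.068, edgeR adjusted p = 0.257). In both genes the groups did not overlap, yet neither passed the test. RPLP2 was at 592 and 621 CPM against 647 and 598 CPM, with overlapping groups (0.038, SE 0.070).

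RPL5 and RPL11 bind the 5S rRNA and, when free, inhibit MDM2. RPL5 was at 678 and 695 CPM in control siRNA and at 746 and 718 CPM in TFAP2C siRNA, and RPL11 at 771 and 766 CPM against 850 and 799 CPM. Both had higher values in both TFAP2C siRNA libraries (log2 fold changes 0.092 and 0.10), with adjusted p of 0.592 and 0.569 by edgeR. RPL26, near the exit tunnel, had a log2 fold change of 0.097 (SE 0.064), and RPL22, which is often mutated in colorectal tumours with microsatellite instability, had 0.048 (SE 0.071).

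In the small subunit, RPS6, the substrate of the S6 kinases, was at 1237 and 1307 CPM in control siRNA and at 1440 and 1328 CPM in TFAP2C siRNA (log2 fold change 0.12, SE 0.072, edgeR adjusted p = 0.514). RPS3, at the mRNA entry channel, was at 1156 and 1176 CPM against 1321 and 1202 CPM (0.11, SE 0.072). Both were highest in TFAP2C siRNA replicate 1. RPS14 and RPS19, genes of inherited or acquired anaemias with defective ribosomes, had log2 fold changes of 0.10 and 0.076, and RPSA and RPS27A, which is made as a fusion with ubiquitin, had 0.091 and 0.15. Among these genes RPL36A had the lowest log2 fold change, with 267 and 209 counts in control siRNA and 205 and 213 in TFAP2C siRNA (-0.22, SE 0.12, edgeR adjusted p = 0.479). Its paralogue RPL36AL had 0.031 (SE 0.073).

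Of the genes with the highest level, RPL8 had 1947 and 2172 CPM in control siRNA and 2261 and 2038 CPM in TFAP2C siRNA (log2 fold change 0.062, SE 0.082), and the groups overlapped. RPL3, also near the peptidyl transferase centre, had 1589 and 1656 CPM against 1791 and 1645 CPM (0.082, SE 0.073). Of the low-count genes, RPL21 had 176 and 157 counts against 156 and 144 (-0.19, SE 0.13). By the share of repeated windows, 14 of the 14 genes under 10% and 5 of the 9 genes at 99% or more had a log2 fold change above 0, with medians of 0.095 and 0.043.

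The median difference was larger for TFAP2C siRNA replicate 1 than for replicate 2, and both lay above both controls. When single libraries were set against each other, the median log2 ratio of the 78 genes was 0.15 and 0.13 for TFAP2C siRNA replicate 1 against control siRNA replicates 1 and 2, and 0.051 and 0.047 for TFAP2C siRNA replicate 2. The ratio was above 0 in 70 and 70 of the 78 genes for replicate 1 and in 68 and 55 for replicate 2. Between the TFAP2C siRNA replicates it was -0.10 (replicate 2 against 1, 11 of 78 genes above 0), as large as the median log2 fold change itself, and between the controls it was 0.021 (53 of 78 above 0). Over all genes the 6 medians lay between -0.021 and 0.0017. Without TFAP2C siRNA replicate 2, 29 of the 78 genes were called higher with a median of 0.15, beside 1330 (8.56%) of 15538 genes. Without TFAP2C siRNA replicate 1, 1 was called higher and the median was 0.048. In the fits that leave out a library, the lone library of a group is taken to vary like the other group.

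The genes took 3.68% and 3.74% of all counts in control siRNA and 4.01% and 3.77% in TFAP2C siRNA. The 95% Wilson intervals, such as 3.67% to 3.68% for control siRNA replicate 1, cover counting error only. The mean share was 3.71% ± 0.044 (SD, n = 2) in control siRNA and 3.89% ± 0.17 (SD, n = 2) in TFAP2C siRNA (exact permutation test, two-sided, p = 0.33, the smallest that 2 against 2 libraries allow). The difference was larger than the spread of the controls and similar to that of the TFAP2C siRNA libraries.

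**Figure D2:**
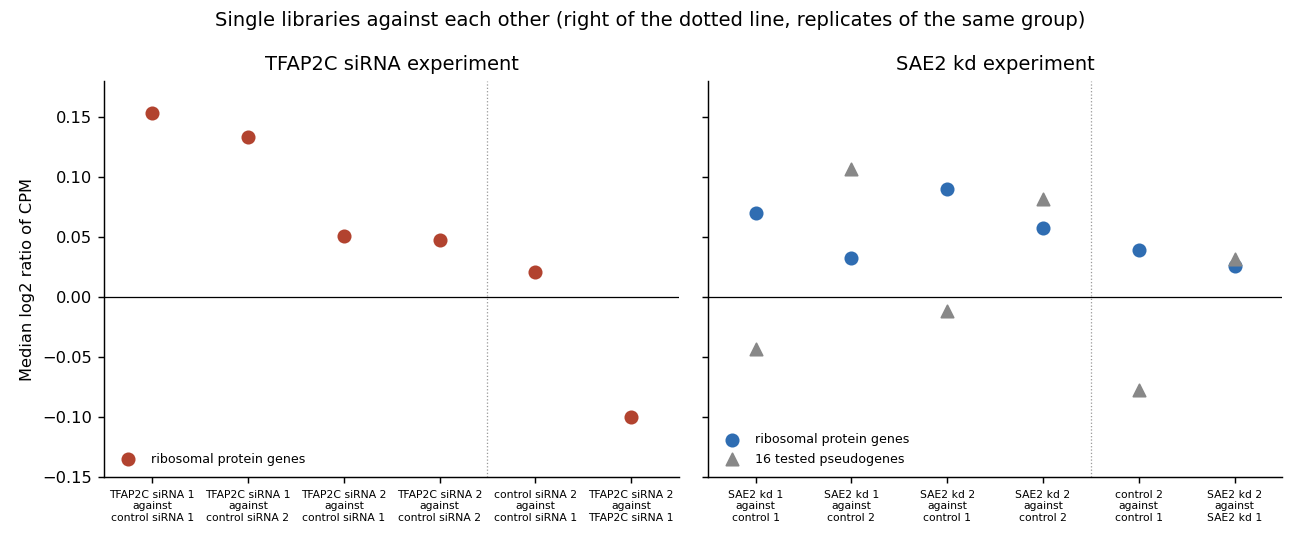
Median log2 ratio of CPM (y axis) for each pair of libraries in the TFAP2C siRNA experiment (left, 78 genes) and the SAE2 kd experiment (right, 77 genes and 16 pseudogenes). Pairs right of the dotted line are replicates of the same group. TFAP2C siRNA replicate 1 gave 0.15 and 0.13 and replicate 2 gave 0.051 and 0.047 against the controls, and the 16 pseudogenes ran from -0.044 to 0.11 in the SAE2 kd pairs with a control.

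The comparison of SAE2 kd with control asked which mRNAs change when SUMOylation is reduced. Only the SAE2 kd libraries received doxycycline, so an effect of the drug and one of the knockdown cannot be told apart. All 77 genes were tested. With an adjusted p under 0.05, 4 were called higher and 0 lower, beside 738 (5.52%) higher and 598 (4.47%) lower among the 13381 genes tested. At an unadjusted p under 0.05, 20 of 77 were higher and 0 lower, beside 1568 (11.7%) higher and 1468 lower of the 13381. The share called higher was near that of all genes. Of the 9 epithelial markers, 6 were tested, and EPCAM, KRT8 and KRT18 were called higher as well (log2 fold changes 0.15, 0.18 and 0.25, edgeR adjusted p = 0.0414, 0.00405 and 7.79e-05). The summed level of the 9 markers was 1999 and 2027 CPM in control and 2325 and 2255 CPM in SAE2 kd, and their part in the values of the ribosomal protein genes was not tested. In the TFAP2C siRNA experiment 0 of the 6 were called, and the sum was 1644 and 1704 CPM in control siRNA and 1948 and 1803 CPM in TFAP2C siRNA.

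RPS6, RPS18 and RPL12 were among the called genes. RPS6 (chr9:19376254-19380235 in hg19, minus strand) had 21318 and 24537 counts in control and 22921 and 23753 in SAE2 kd, or 1139 and 1176 CPM against 1273 and 1276 CPM, a log2 fold change of 0.14 (SE 0.039, edgeR adjusted p = 0.0199). RPS18, in the small subunit head, had 469 and 468 CPM against 518 and 522 CPM (0.15, SE 0.043, edgeR adjusted p = 0.0202). In both genes the 2 libraries of each group were close together and the groups did not overlap.

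RPL12, at the base of the stalk (chr9:130209953-130213711, minus strand), had 246 and 255 CPM in control and 277 and 283 CPM in SAE2 kd (log2 fold change 0.16, SE 0.048, edgeR adjusted p = 0.0233). Each of these changes was between 1.10 and 1.12 fold. The row of RPS18 is placed on an alternative haplotype of chromosome 6, so no coordinates are given. These genes had 14.5% (RPS6), 52.5% (RPS18) and 65.6% (RPL12) repeated windows.

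All 4 calls were lost without TMM scaling (adjusted p of these 3 genes from 0.0548 for RPS18 to 0.0594 for RPS6), in a fit of all 8 libraries (0.101 to 0.162) and without control replicate 1 (0.0937 to 0.21). Without control replicate 2, RPS6 was the single gene of the 4 to pass, beside RPS12. The Wald test of DESeq2 called RPS6, RPS18 and RPL12, and no other gene of the 77. Over all 13381 genes it called 447 higher and 226 lower. In the TFAP2C siRNA experiment the same genes had log2 fold changes of 0.12 (RPS6), 0.12 (RPS18) and 0.069 (RPL12), none of them called.

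**Figure D3:**
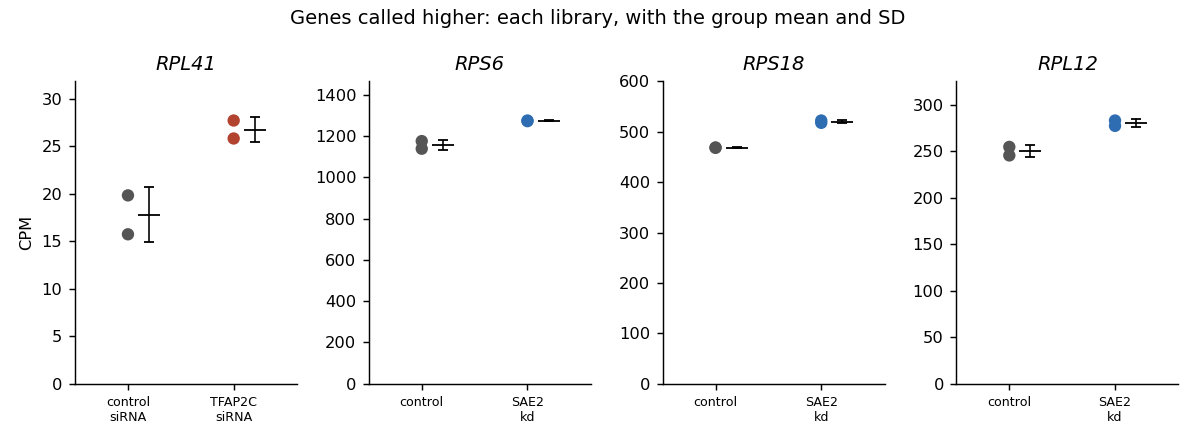
CPM of 4 genes called higher (y axis from 0) in each library, RPL41 in the TFAP2C siRNA experiment and RPS6, RPS18 and RPL12 in the SAE2 kd experiment. Points are libraries, and the bars beside them give the mean and SD of 2 replicates. In each panel both knockdown libraries lie above both controls.

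Over the 77 genes the log2 fold change was above 0 in 61, beside 49.9% of all genes, with a median of 0.054 (range -0.28 to 0.21) beside -0.00042 over all genes. This is a difference of 3.80%. In 43 genes both SAE2 kd libraries lay above both controls and in 3 (RPL13A, RPL36AL and RPS7) both lay below, beside 25.5% and 25.8% of all genes. The 47 large-subunit genes had a median of 0.059 and the 30 small-subunit genes a median of 0.052. The lowest and highest values, -0.28 (SE 0.53) for RPS10 and 0.21 (SE 0.24) for RPS28, belonged to genes with at most 50 counts in a library. By repeated windows, the median was 0.086 in the 14 genes under 10%, all of them above 0, and -0.0021 in the 9 genes at 99% or more, 4 of them above 0.

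**Figure D4:**
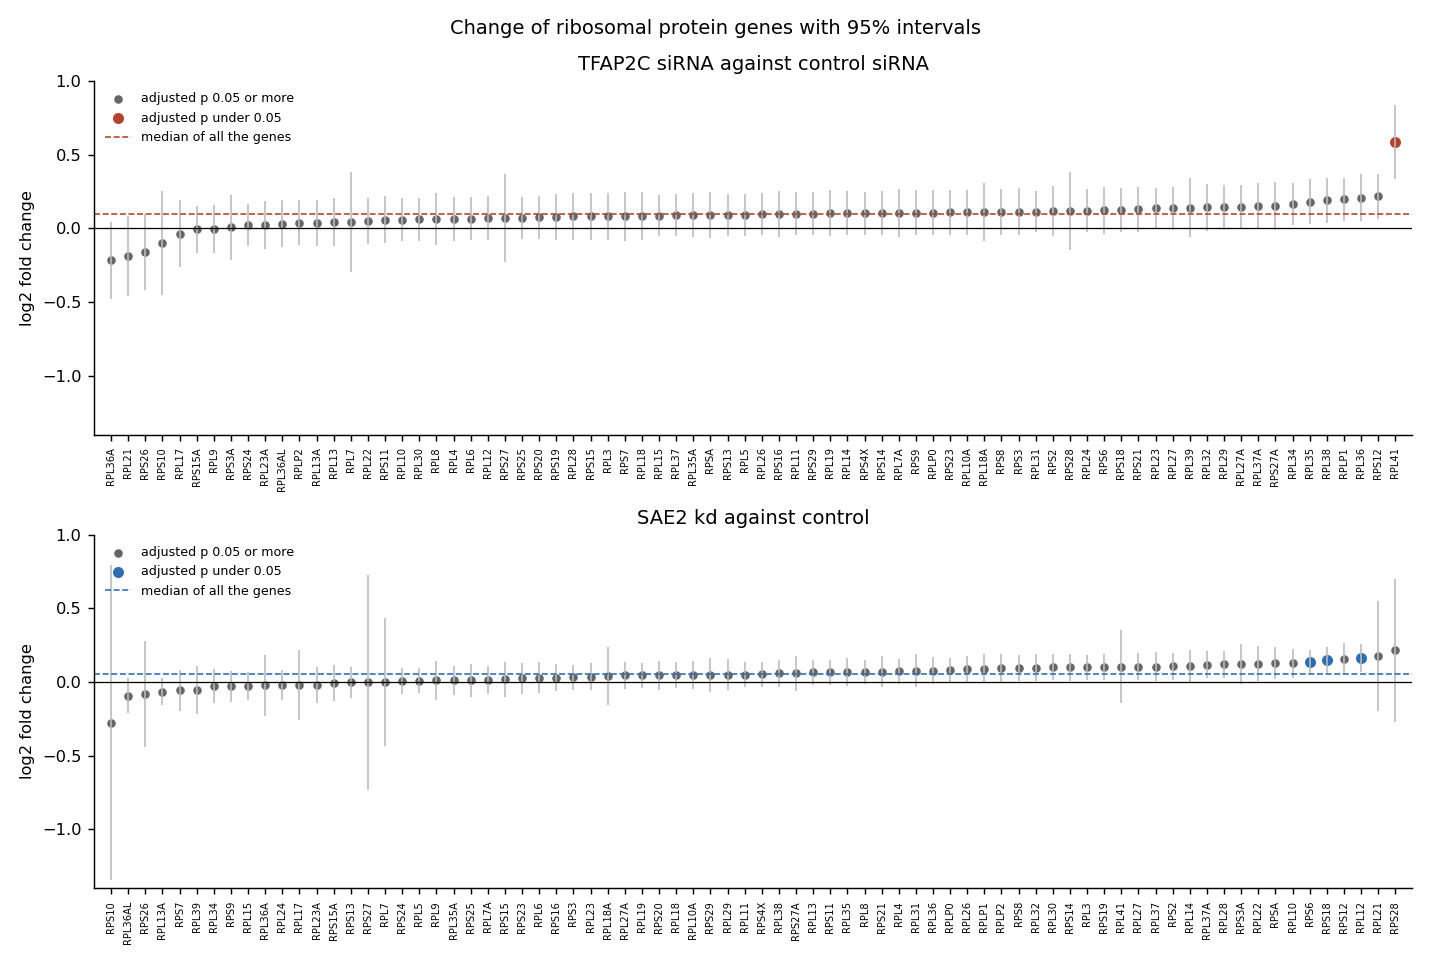
log2 fold change (y axis) of ribosomal protein genes, in order of its value, in TFAP2C siRNA against control siRNA (top, 76 of the 78 genes) and SAE2 kd against control (bottom, 76 of the 77 genes). Bars are 95% intervals, coloured points have an adjusted p under 0.05, and the dashed line is the median of all the ribosomal protein genes, 0.098 at the top and 0.054 at the bottom.

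Among the genes with fixed roles, RPLP0 was at 657 and 664 CPM in control and 688 and 709 CPM in SAE2 kd (log2 fold change 0.081, SE 0.042), and RPLP1 and RPLP2 had 0.091 and 0.093. In all 3 stalk genes the groups did not overlap, and none passed the test (edgeR adjusted p from 0.229 to 0.253). RPL5 was at 628 and 649 CPM against 637 and 649 CPM (0.010, 95% interval -0.076 to 0.096), and RPL11 at 675 and 680.0 CPM against 703 and 699.8 CPM (0.050, interval -0.034 to 0.13).

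In the small subunit, RPSA was at 143 and 156 CPM in control and at 163 and 163 CPM in SAE2 kd (log2 fold change 0.13, SE 0.054, edgeR adjusted p = 0.146), and RPS19 and RPS14 had 0.10 and 0.10. These groups did not overlap. RPS3 (0.033) and RPS27A (0.060) had overlapping groups. RPL22 was at 118 and 130.4 CPM against 132 and 139 CPM (0.13, SE 0.057, edgeR adjusted p = 0.184), and RPL26 had 0.087. RPL36AL was at 106 and 112 CPM against 102 and 103 CPM, with both SAE2 kd libraries below both controls (-0.092, SE 0.057, edgeR adjusted p = 0.357), while RPL36A overlapped (-0.023, SE 0.10). RPL8 and RPL4, a protein of the exit tunnel, had 0.068 and 0.073.

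Each of the 4 pairs of an SAE2 kd library with a control also had a median above 0, with 0.070 and 0.033 for SAE2 kd replicate 1 against control replicates 1 and 2, and 0.090 and 0.058 for SAE2 kd replicate 2. Between replicates the median was 0.039 in control and 0.026 in SAE2 kd, so that 1 of the 4 pairs was smaller than the distance between the controls. With each library left out in turn, the median lay between 0.045 and 0.081. The genes took 2.48% ± 0.047 (SD, n = 2) of the counts in control and 2.56% ± 0.016 (SD, n = 2) in SAE2 kd (exact permutation test, two-sided, p = 0.33).

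The pseudogenes showed no common direction in this experiment. Of the 29 pseudogenes, 16 passed the count filter, and 0 were called (edgeR). At an unadjusted p under 0.05 there were 3, RPL13AP6 and RPL19P12 higher and RPL23AP82 lower. Over all 13381 genes, 1568 were higher and 1468 lower at this unadjusted threshold. The log2 fold change was above 0 in 8 of 16, with a median of 0.018. A pseudogene with few counts passes the filter only where its counts are high, so this describes the 16 and not all 29. DESeq2 called 0 of those to which it gave an adjusted p, beside 447 higher and 226 lower of 13381 genes. Against control replicate 1 their median was -0.044 and -0.012 for the SAE2 kd replicates, and against control replicate 2 it was 0.11 and 0.081. Between the controls it was -0.078, and the median log2 fold change ran from -0.066 without control replicate 2 to 0.13 without control replicate 1.

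Single pseudogenes differed from their parents in several cases. RPSAP58 was at 131 and 128 CPM in control and at 127 and 131 CPM in SAE2 kd (log2 fold change -0.00041, 95% interval -0.11 to 0.11), where RPSA had 0.13 (interval 0.017 to 0.24). The difference between them was not tested. RPL19P12 had 94.7 and 92.2 CPM against 101 and 103 CPM (0.13, SE 0.057, edgeR adjusted p = 0.177), with groups that did not overlap, and RPL19 had 0.046. RPS14P3 (0.11) and RPS18P9 (0.20) had values near those of RPS14 (0.10) and RPS18 (0.15), but larger errors (SE 0.084 and 0.11). RPL23P8 (0.036) and RPL31P11 (-0.023) overlapped between groups.

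The largest value was that of RPL13AP6, with 29 and 36 counts in control and 40 and 58 in SAE2 kd (0.70, SE 0.25, edgeR adjusted p = 0.0699), while its parent RPL13A had -0.065. RPL13AP6 is named for its value, after it was seen. Its call depended on the setting: it passed in 3 of 10 alternatives, with adjusted p from 0.0345 to 0.484. Over the 16 pseudogenes, 11 had the same sign as their parent, and Pearson's r of the log2 fold changes was -0.016 and Spearman's rho 0.20 (several share a parent). With each gene's counts summed with those of its pseudogenes, 4 genes were again called higher and the median was 0.059.

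**Figure D5:**
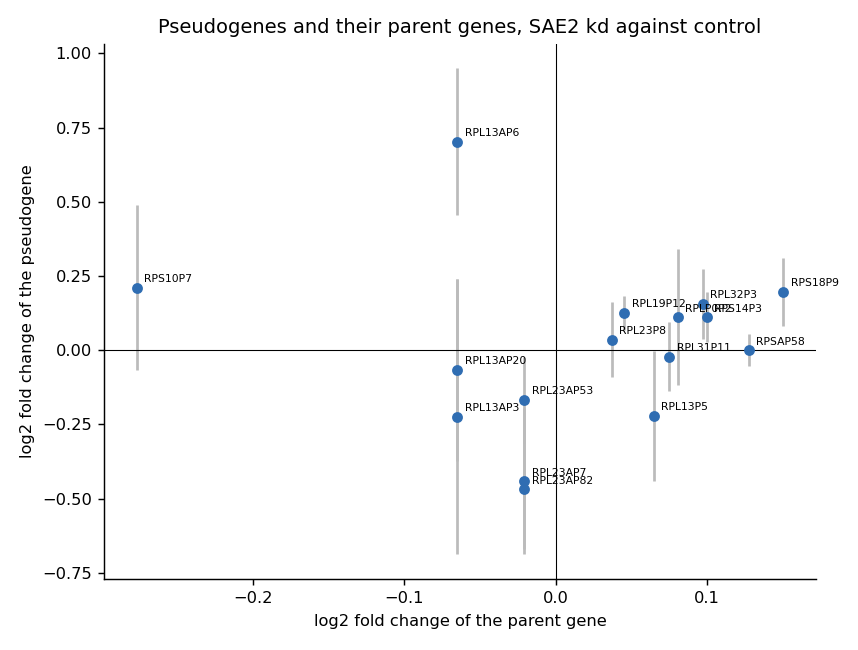
log2 fold change of 12 parent genes (x axis) and of their 16 tested pseudogenes (y axis, bars are SE) in SAE2 kd against control. RPL13AP6 stands at 0.70 with a parent at -0.065, and RPSAP58 at -0.00041 with a parent at 0.13.

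The changes in the experiments were compared directly in a fit of all 8 libraries over the symbols that both tables list. The difference, TFAP2C siRNA change less SAE2 kd change, was called in 0 of 77 genes, beside 313 (2.37%) of 13179, and 2 of 77 (RPL41 and RPL34) had an unadjusted p under 0.05. The median difference was 0.028 (range -0.37 to 0.47), with 48 of 77 above 0. RPL41 had the smallest adjusted p (difference 0.47, SE 0.17, edgeR adjusted p = 0.211). The tables were counted on different annotations, and the experiments differ in agent and time, so annotation and experiment cannot be told apart in levels.

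The presence of the TOP run was set beside the changes. The 46 genes with the run had a median log2 fold change of 0.10 in TFAP2C siRNA (43 above 0) and of 0.066 in SAE2 kd (37 above 0). The 17 genes without it had 0.084 (14 above 0) and 0.046 (12 above 0). Other TOP mRNAs, for translation factors and their partners, had 0 called of 21 tested in TFAP2C siRNA, beside 0.26% of all genes higher and 0.48% lower. Their median there was 0.060, with 13 above 0 and 8 below. At an unadjusted p under 0.05, 2 were lower and 0 higher, beside 1038 lower and 851 higher of 14991 genes. In SAE2 kd 3 of 22 were called higher (TPT1, EEF1A1 and PABPC1) and 0 lower, beside 5.52% and 4.47% of all genes, with a median of 0.038, 16 above 0 and 6 below. At the start, 14 of the 15 with a RefSeq start had the run. TPT1, a highly expressed TOP mRNA for a translationally controlled protein, was at 1116 and 1122 CPM in control and 1257 and 1299 CPM in SAE2 kd (0.19, SE 0.040, edgeR adjusted p = 0.000986).

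Paralogues of ribosomal proteins outside the rule had 0 called of 4 in either experiment. Over all genes 0.26% were called higher and 0.48% lower in TFAP2C siRNA, and 5.52% and 4.47% in SAE2 kd. The paralogues had medians of 0.15 in TFAP2C siRNA (4 above 0 and 0 below) and 0.013 in SAE2 kd (2 above 0 and 2 below). Of 15 regulators of ribosomal protein synthesis or surveillance, 0 were called in TFAP2C siRNA (median -0.017, 6 above 0 and 9 below), beside 0.26% of all genes higher. In SAE2 kd 4 were called higher and 0 lower (median 0.060, 11 above 0 and 4 below), beside 5.52% and 4.47% of all genes. EIF4EBP1, an mTOR target that represses cap-dependent translation, was at 75.2 and 72.7 CPM in control and 107 and 104 CPM in SAE2 kd (0.51, SE 0.059). BTG1, an antiproliferative gene, had 36.8 and 38.6 CPM against 49.5 and 52.0 CPM (0.43, SE 0.070). LARP1, which binds the TOP run, had 0.16, with both SAE2 kd libraries above both controls.

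A list of 8 host genes of small nucleolar RNAs, chosen as TOP transcripts, was also set beside the ribosomal protein genes. Of 8 tested, 0 were called in TFAP2C siRNA (median 0.014, 5 above 0 and 3 below), beside 0.26% of all genes higher. In SAE2 kd 3 were called higher and 0 lower (median 0.11, 7 above 0 and 1 below), beside 5.52% and 4.47% of all genes. ZFAS1 was at 106 and 111 CPM in control and 137 and 146 CPM in SAE2 kd (0.38, SE 0.056). GAS5 had 133 and 149 CPM against 160.4 and 167 CPM (0.22, SE 0.057), and SNHG5 had 30.6 and 36.1 CPM against 37.5 and 42.2 CPM (0.25, SE 0.082). In these 3 genes the groups did not overlap. SNHG12, named after its values were seen, was at 67.7 and 70.6 CPM in control and 62.4 and 62.9 CPM in SAE2 kd, with both SAE2 kd libraries below both controls (-0.14, SE 0.063, edgeR adjusted p = 0.16).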

How the data were processed

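mRNA-seq of 8 libraries in 4 groups was analysed. Per the labels and methods, 51 bp single-end reads were aligned to hg19 with TopHat2 and counted per RefSeq gene with HTSeq 0.9.1. The authors deposited raw counts, with no normalization, in a table for each experiment. The strand setting and the handling of reads with several positions are not given in the sources used here. The SAE2 kd table holds hg19 positions. The TFAP2C siRNA table holds GRCh38 positions, which conflicts with the hg19 alignment named, so how it was counted could not be settled. The tables were analysed separately, by symbol, and 0 count columns were left unassigned.

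In R 4.3.3, the counts were filtered with filterByExpr, scaled by TMM and tested with the quasi-likelihood test of edgeR 4.0.16, two-sided, with Benjamini-Hochberg adjustment over all genes tested. An adjusted p under 0.05 was called. Standard errors were derived from each fold change and the F value of its test. Single-library ratios used a pseudocount of 0.5. On simulated counts in which 200 genes differed by 1 on the log2 scale, 97% were recovered in the TFAP2C siRNA design (14838 genes, 12.2% of calls false) and 96% in the SAE2 kd design (13289 genes, 2.54% false). The alternatives included DESeq2 1.42.0, other scalings and filters, a replicate block, a fit of all libraries and each library left out. Windows of other genes were taken at every 10th base.

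The genes, lists and tests were chosen with earlier results of these data known. Genes named are those called (at most 10 a direction), the 3 highest and 3 lowest by CPM, those under 10 counts, 15 with fixed roles, the 6 pseudogenes with the most counts, and up to 8 called list genes. Exceptions are stated, and some items that the rule names are not reported here. Sequences come from GRCh37 and RefSeq (GRCh38.p14).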

Additional observations from a re-analysis of the deposited data

Results flagged for a closer look

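The difference between the experiments was tested itself in a fit of all 8 libraries (edgeR), and 313 of 13179 genes (2.37%) had an adjusted p under 0.05. Of the genes described here, this fit held ribosomal protein genes, genes of the lists set beside them, markers and the targeted genes. It held no pseudogene, because the TFAP2C siRNA experiment lists 0 of them. Among the genes it held, 3 passed, and none of these is a ribosomal protein gene. TFAP2C, the target of the siRNA, had a difference of -2.07 (SE 0.19, edgeR adjusted p = 5.08e-05), with log2 fold changes of -2.34 in TFAP2C siRNA and -0.28 in SAE2 kd. ZFAS1 had a difference of -0.45 (SE 0.088, edgeR adjusted p = 0.0115), with 57.3 and 57.2 CPM in control siRNA and 55.4 and 55.1 CPM in TFAP2C siRNA (-0.052), against 0.38 in SAE2 kd. BTG1 also had a difference of -0.45 (SE 0.10, edgeR adjusted p = 0.0305), with 44.9 and 48.6 CPM in control siRNA and 47.1 and 45.8 CPM in TFAP2C siRNA (-0.0079), against 0.43 in SAE2 kd. With each library left out in turn, the difference ran from -0.49 to -0.41 for ZFAS1 and from -0.50 to -0.38 for BTG1. The calls of ZFAS1 and BTG1 were lost in some of these fits.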

How the results depend on the processing

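With 2 libraries in a group, depth did not limit the abundant genes, but genes with few counts, such as RPS10 and RPS27, and most pseudogenes had wide intervals. A lack of a call does not show that a gene did not change. In TFAP2C siRNA 1 gene was called higher, and library size without TMM gave 0. In SAE2 kd 4 were called, and library size gave 0, as did the fit of all 8 libraries. Library size also moved the median over the genes in SAE2 kd to 0.028, and the calls over all genes from 738 higher and 598 lower to 588 higher and 805 lower. The median of all genes moved too with library size, to -0.032 in TFAP2C siRNA and -0.026 in SAE2 kd. With TMM it was -0.0038 and -0.00042. Without a filter 1 pseudogene was called, beside 813 higher and 690 lower of all 17503 genes, and the pseudogene median was -0.043. Without mitochondrial genes, which the TFAP2C siRNA table alone lists, the shares were 4.11% in control siRNA and 4.32% in TFAP2C siRNA.

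The same-numbered libraries had correlations of deviations of -0.14 in the TFAP2C siRNA experiment and 0.074 in the SAE2 kd experiment, so the numbers were not taken to pair the samples. With the replicate block, 1 gene was called in TFAP2C siRNA, beside 48 higher and 124 lower of all 14991 genes. In SAE2 kd the block gave 3 genes and 1 pseudogene, beside 698 higher and 610 lower of all 13381 genes. With the crossed pairing, added after seeing the data, 3 genes were called higher in TFAP2C siRNA, beside 201 higher and 266 lower of all 14991 genes.

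With each library left out in turn, genes called higher ran from 0 to 29 in TFAP2C siRNA and from 0 to 5 in SAE2 kd, and pseudogenes called from 0 to 1. The medians ran from 0.048 to 0.15 and from 0.045 to 0.081 for the genes, and from -0.066 to 0.13 for the pseudogenes. In TFAP2C siRNA, the log2 fold change ran from -0.015 to 0.14 for RPL8, -0.22 to 0.0069 for RPS10, -0.027 to 0.16 for RPS27, -0.020 to 0.098 for RPLP2 and -0.024 to 0.079 for RPL36AL. In SAE2 kd it ran from -1.63 to 0.39 for RPS10, -0.34 to 0.50 for RPS27, -0.013 to 0.035 for RPL5, -0.023 to 0.15 for RPS27A, -0.12 to 0.070 for RPL36A, -0.022 to 0.023 for RPSAP58, -0.16 to 0.25 for RPL23P8, -0.12 to 0.073 for RPL31P11 and -0.11 to 0.038 for UBA2. These genes were called in neither direction. Values near 0 also changed sign for RPS27 (0.0091 by DESeq2, 0.011 with the block, 0.00013 with all 8 libraries), RPL5 (-0.016 with library size) and RPSAP58 (0.00083 without a filter), and RPS10 had 0.092 when summed with its pseudogenes. The cause was not tested.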
